A study of Mus musculus with 18 samples.

Results

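The 44 genes described here encode the proteins that take glucose into the cell and break it down to pyruvate and lactate, store it as glycogen, and pass it through the pentose phosphate pathway. They were chosen by gene symbol, with earlier results of these data known, from the 16909 genes of the count table. All 44 are in the table and all 44 passed the low-count filter, which left 12465 genes to be tested. Glycolysis turns glucose into pyruvate in the cytosol. Pyruvate is then reduced to lactate and exported, or enters mitochondria, where the pyruvate dehydrogenase complex converts it to acetyl-CoA. Pyruvate dehydrogenase kinases inhibit that complex. The pentose phosphate pathway branches off at glucose 6-phosphate and yields NADPH in its oxidative steps and ribose phosphate in the others. Glycogen is made from the same sugar phosphate and can give it back. Macrophages that meet bacterial products are known for fast glycolysis with lactate release, and several of these genes are known targets of the hypoxia-inducible factor HIF-1.

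The 18 libraries hold poly(A) RNA of macrophages grown from mouse bone marrow. Macrophages of 2 groups received apoptotic bodies (ABs), which are vesicles pinched off by cells in apoptosis, from cells that the labels call hucMSC. These were UVABs (n = 5), whose ABs had been induced with UV, and STSABs (n = 5), whose ABs had been induced with STS. The series' design names both as anti-inflammatory treatments. The LPS group (n = 5) is its positive control for inflammation and Con (n = 3) its mock group. LPS, a cell wall lipid of bacteria, activates macrophages through Toll-like receptor 4. The sources used here give neither mouse strain, age, doses and times nor whether the AB groups also received LPS, and name no transgene or mutation. All p-values measure the spread between libraries, since nothing says that replicates came from separate cultures.

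Library totals ranged from 17588357 to 18675283 estimated counts. The 10 macrophage markers were present in every group, with summed levels of 10430 to 11400 CPM (counts scaled to a common library size) in UVABs, 9067 to 10830 CPM in STSABs, 12640 to 14010 CPM in LPS and 11330 to 12210 CPM in Con libraries. All CPM values here are scaled by TMM factors, which averaged 0.928 in UVABs, 0.932 in STSABs, 0.902 in LPS and 1.51 in Con, and statements on overlap hold on this scale. Of the LPS response genes Il6, Tnf, Il1b, Nos2 and Acod1, 5 of 5 were higher in each AB group than in Con, and 4 of 5 lower in each than in LPS. The libraries numbered 2 of both AB groups stood apart from the others on the third principal component, at -27.3 in UVABs and -21.5 in STSABs, against 5.03 to 10.8 for the other UVABs and 2.5 to 11.2 for the other STSABs libraries. Counts are therefore also given without them.

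Most of the enzymes were higher in the AB groups than in LPS. None of the pentose phosphate pathway was in the main fit with TMM scaling, while library totals put 1 of its genes higher in STSABs and 3 in UVABs. Some TMM fits without 1 library put Tkt higher in either AB group or Pgls higher in UVABs. In UVABs against LPS, 29 of the 44 genes were higher, 7 lower and 8 not past the threshold (edgeR's quasi-likelihood test, Benjamini-Hochberg adjusted p under 0.05). Over all genes tested 57.4% were called, 28.6% higher and 28.8% lower. In STSABs against LPS, 28 were higher, 7 lower and 9 not past the threshold, beside 57.4% of all genes called, 28.4% higher and 29.0% lower. The median log2 fold change of the 44 genes was 0.351 in UVABs and 0.35 in STSABs, and that of all genes tested 0.000288 and -0.00556. The comparisons share the LPS libraries. Without the libraries numbered 2, 28 genes were higher and 7 lower in UVABs, and 30 higher and 7 lower in STSABs. Of the 12436 genes tested in that fit, 3602 were higher and 3730 lower in UVABs, and 3588 and 3703 in STSABs. In bulk RNA, fewer cells of a type and less RNA per cell cannot be told apart. Any RNA carried by the ABs was not told apart from RNA of the macrophages.

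Against Con, LPS libraries had 22 genes higher, 16 lower and 6 not past the threshold, where 83.0% of all genes were called, 40.0% higher and 43.0% lower. The median of the 44 genes was 0.15, that of all genes -0.0327. These directions depend on scaling. With library totals in place of TMM the median of all genes moved to -0.777, and 9 of the 44 were higher and 32 lower, with a median of -0.595. With upper-quartile scaling the median of all genes was -0.31, and 14 were higher and 20 lower. Calls higher in LPS made up 48.2% of all calls with TMM, 36.0% with the upper quartile and 21.2% with library totals. Under all 4 scalings tried, 9 of the genes were higher in LPS and 15 lower. In the comparisons of AB groups with LPS, the calls of 28 genes higher and 7 lower in STSABs, and of 29 higher and 7 lower in UVABs, were made under all 4 scalings.

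**Figure D1:**
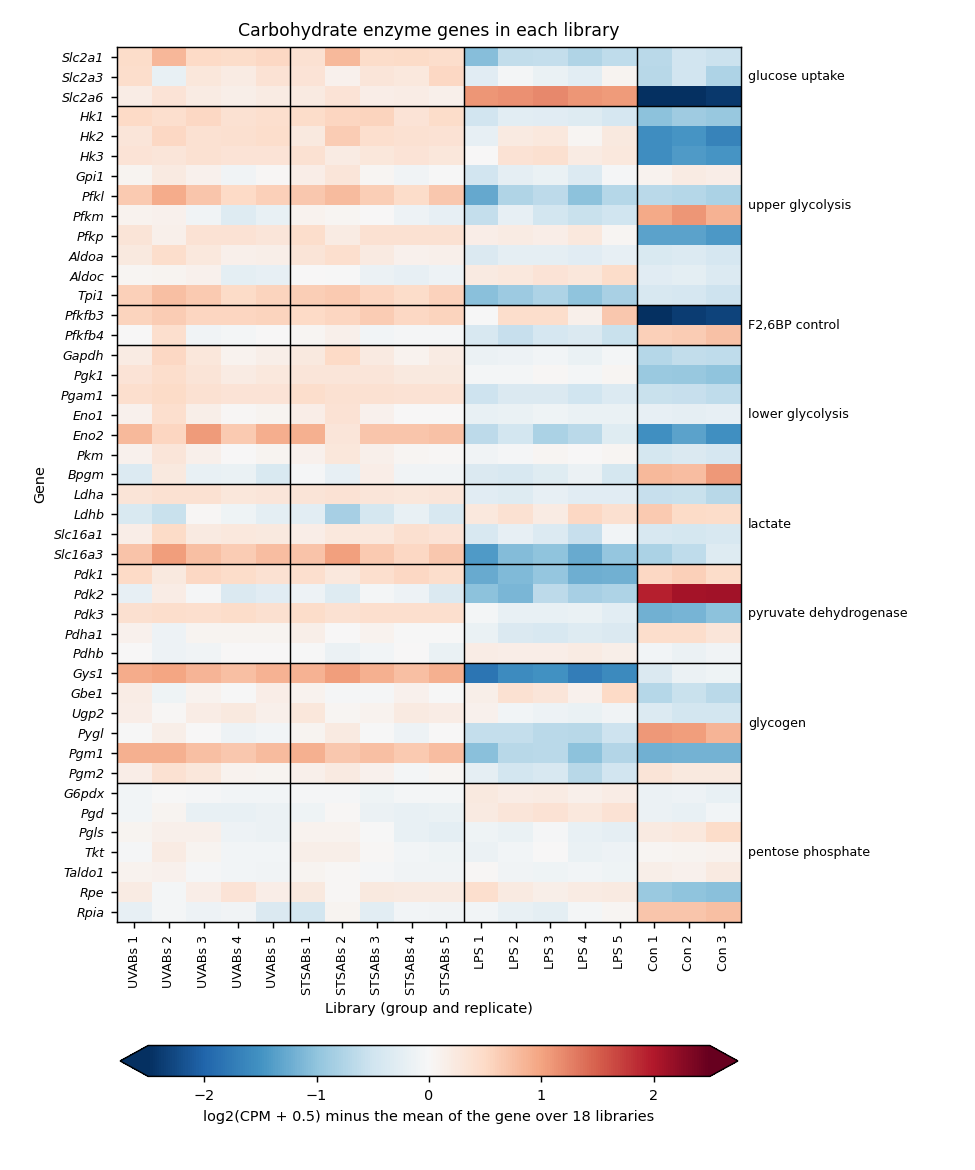
Each row is a gene and each column a library; colour gives log2(CPM + 0.5) minus the gene's mean over the 18 libraries, and lines part the groups and the 8 groups of enzymes. Gys1, Pgm1 and Slc16a3 are high in the UVABs and STSABs columns, Gys1 is low in the LPS columns, and Slc2a6 and Pfkfb3 are lowest and Pdk2 highest in the Con columns.

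**Figure D2:**
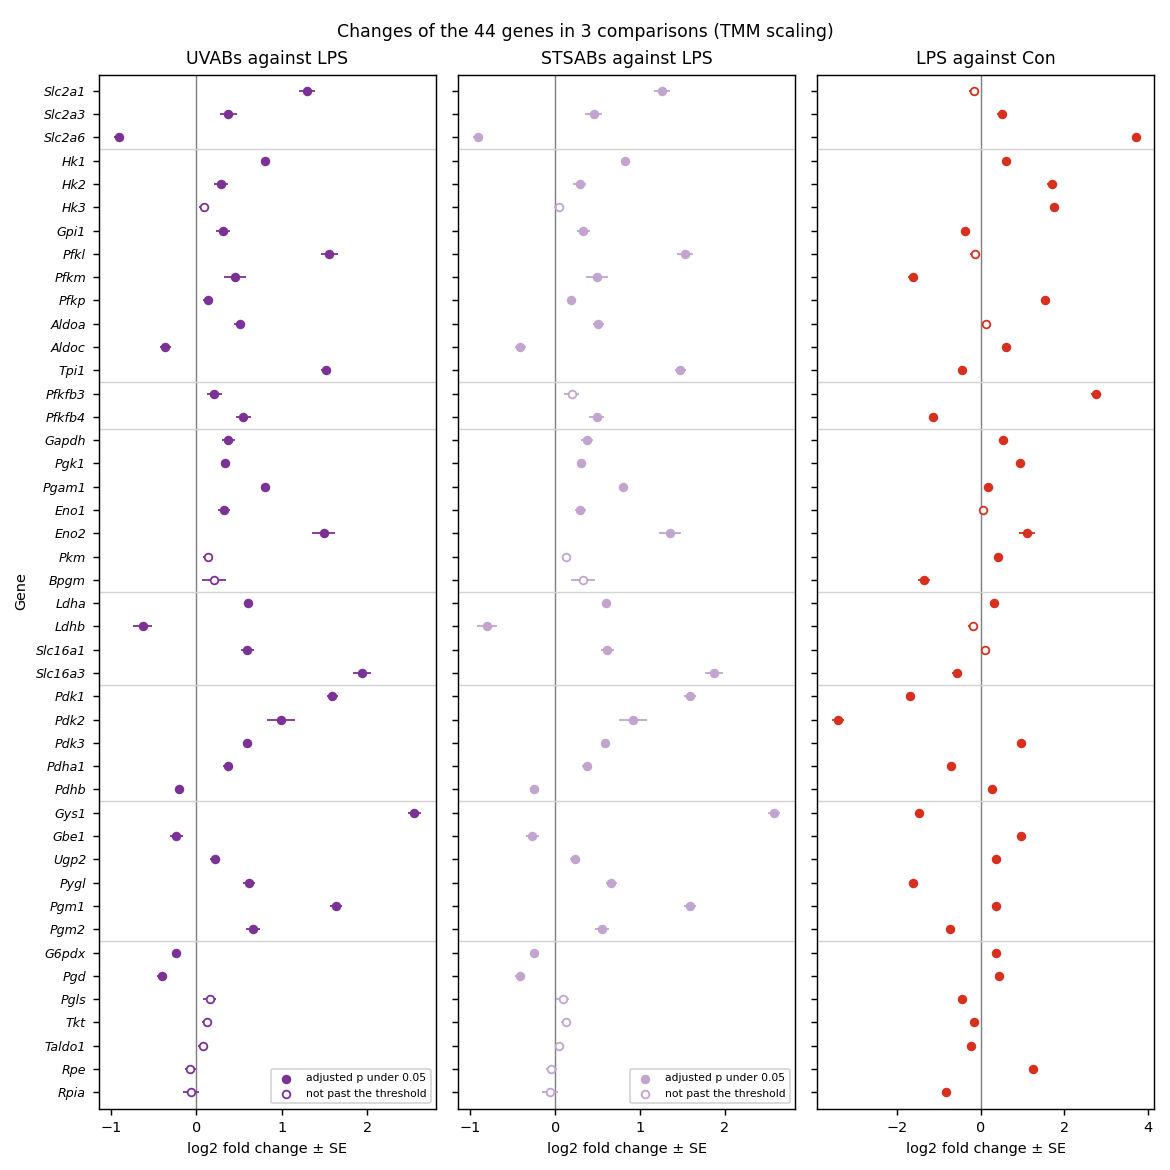
Points are log2 fold changes and bars their SE for UVABs against LPS, STSABs against LPS and LPS against Con (edgeR, n = 5, 5, 5 and 3 libraries); filled points passed an adjusted p of 0.05. Gys1 lies farthest right in both AB panels, at 2.55 and 2.57, and 7 genes lie to the left of 0 as filled points in each.

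Glucose uptake genes split. Slc2a1 (GLUT1), the main glucose transporter of the plasma membrane of most cells, was higher in both AB groups than in LPS, and Slc2a6 (GLUT6), a transporter of the same family that sits on internal membranes, was lower. Slc2a1 stood at 236, 306, 239.9, 234 and 245 CPM in UVABs libraries and at 223, 300.2, 236, 239 and 231 CPM in STSABs libraries. The LPS libraries had 81.0, 111, 113, 101 and 109.9 CPM of Slc2a1, and the Con libraries 107, 122 and 118 CPM. Every AB library lay above every LPS and Con library, with replicate 2 highest in both AB groups, and LPS and Con overlapped. The log2 fold change of Slc2a1 against LPS was 1.29 ± 0.094 in UVABs and 1.25 ± 0.094 in STSABs (SE, adjusted p = 2.82e-10 and 4.06e-10). Between LPS and Con it was -0.16 ± 0.11 (SE, adjusted p = 0.162), not past the threshold, but it passed with the upper quartile, at -0.44, and with library totals, at -0.91. For Slc2a6, UVABs libraries had 337, 374, 339.7, 329 and 339.7 CPM and STSABs libraries 347, 375, 334, 337 and 324 CPM. Its values were 635, 657, 681, 639 and 622 CPM in LPS libraries and 46.2, 46.5 and 55.5 CPM in Con libraries. LPS libraries were above all others, Con libraries below all others, and the AB groups lay between them. Slc2a6 fell by 0.91 ± 0.054 on the log2 scale in UVABs and by 0.91 ± 0.054 in STSABs against LPS (SE, adjusted p = 1.47e-11 and 1.41e-11). In LPS against Con it rose by 3.71 ± 0.075 (SE, adjusted p = 1.82e-21), the largest rise of the 44 genes, and its rise held under all 4 scalings. Slc2a3 (GLUT3), a high-affinity transporter, averaged 39.0 ± 6.16 CPM in UVABs, 41.1 ± 4.46 CPM in STSABs, 30.1 ± 3.16 CPM in LPS and 21.0 ± 2.33 CPM in Con libraries (SD). Its log2 fold change against LPS was 0.37 ± 0.10 in UVABs and 0.45 ± 0.10 in STSABs (SE, adjusted p = 0.00347 and 6.88e-04).

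Hexokinases, which trap glucose as glucose 6-phosphate, were all higher in LPS than in Con with TMM, though Hk1 was lower with library totals. In the AB groups against LPS, Hk1 changed most of the 3. Libraries of UVABs held 253, 294, 267, 269 and 277 CPM of Hk2, and libraries of STSABs 243, 315, 273, 265 and 261 CPM. In LPS libraries Hk2 reached 177, 239, 245, 209.9 and 242 CPM, against 69.4, 73.3 and 63.8 CPM in Con libraries. Hk2 is the inducible hexokinase; its Con libraries were far below the rest, and only STSABs overlapped LPS. Its log2 fold change was 1.69 ± 0.099 (SE, adjusted p = 3.65e-13) in LPS against Con and, against LPS, 0.29 ± 0.079 in UVABs and 0.29 ± 0.079 in STSABs (SE, adjusted p = 0.00373 and 0.00396). Hk3 stood at 278, 272, 286, 279 and 279 CPM in UVABs libraries and at 285, 253, 269, 277 and 269 CPM in STSABs libraries. The LPS libraries had 222, 284, 289, 254 and 265 CPM of Hk3, and the Con libraries 74.6, 81.8 and 79.3 CPM. Hk3, a hexokinase of blood leukocytes, overlapped among UVABs, STSABs and LPS, and lay below all of them in Con. It rose by 1.74 ± 0.071 (SE, adjusted p = 5.18e-16) in LPS against Con, and its values against LPS were 0.085 in UVABs and 0.043 in STSABs, not past the threshold (adjusted p = 0.211 and 0.538). Hk2 and Hk3 were higher in LPS under all 4 scalings. Hk1, the hexokinase found in most tissues, averaged 251 ± 10.1 CPM in UVABs, 254 ± 14.8 CPM in STSABs, 144 ± 9.17 CPM in LPS and 94.5 ± 4.41 CPM in Con libraries (SD). It was higher than in LPS by 0.80 ± 0.052 in UVABs and 0.82 ± 0.052 in STSABs (SE, adjusted p = 5.02e-11 and 3.51e-11); its rise of 0.60 ± 0.061 in LPS against Con became -0.14 with library totals.

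Phosphofructokinase 1, the committed step of glycolysis, has liver (Pfkl), muscle (Pfkm) and platelet (Pfkp) type subunits, and each moved differently. For Pfkl, UVABs libraries had 192, 233, 197, 172 and 185 CPM and STSABs libraries 195, 212, 187, 169 and 196 CPM. Its values were 50.0, 71.9, 77.3, 60.0 and 73.9 CPM in LPS libraries and 76.0, 74.7 and 70.5 CPM in Con libraries. All AB libraries were above all LPS and Con libraries, which overlapped each other. Pfkl rose in the AB groups against LPS by 1.56 ± 0.097 in UVABs and 1.53 ± 0.097 in STSABs (SE, adjusted p = 3.06e-11 and 3.61e-11), and was not past the threshold in LPS against Con at -0.15 ± 0.11 (SE, adjusted p = 0.221). With the upper quartile and with library totals Pfkl was lower in LPS than in Con, at -0.43 and -0.89, and with library totals these groups did not overlap. Libraries of UVABs held 933, 813, 956, 949 and 919.9 CPM of Pfkp, and libraries of STSABs 1012, 858, 961, 964 and 960.1 CPM. In LPS libraries Pfkp reached 836, 851, 829, 892 and 762 CPM, against 291, 292 and 275 CPM in Con libraries. Pfkp was lowest in Con, and the other groups overlapped. Its log2 fold change was 1.54 ± 0.067 (SE, adjusted p = 1.69e-15) in LPS against Con, and 0.13 ± 0.055 in UVABs and 0.19 ± 0.055 in STSABs (SE, adjusted p = 0.0432 and 0.00531) against LPS. The small rise of Pfkp in UVABs lost the threshold without any one of LPS replicates 1, 2, 3 and 5, STSABs replicates 3, 4 and 5 and UVABs replicates 1, 3, 4 and 5, at 0.10 to 0.14. Pfkm stood at 3.64, 3.71, 3.21, 2.62 and 2.94 CPM in UVABs libraries and at 3.65, 3.53, 3.41, 3.10 and 2.88 CPM in STSABs libraries. The LPS libraries had 2.09, 2.91, 2.33, 2.16 and 2.27 CPM of Pfkm, and the Con libraries 7.10, 7.87 and 6.69 CPM. Pfkm was a minor subunit gene with few counts, highest in Con, and its AB and LPS ranges overlapped because of LPS replicate 2. It fell by 1.61 ± 0.12 in LPS against Con (SE, adjusted p = 3.97e-11) and was higher than in LPS by 0.45 ± 0.13 in UVABs and 0.49 ± 0.13 in STSABs (SE, adjusted p = 0.00502 and 0.00245).

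The fructose 2,6-bisphosphate enzymes set the level of the strongest activator of phosphofructokinase 1. Pfkfb3 mainly makes it, and Pfkfb4 can make or remove it. For Pfkfb3, UVABs libraries had 402, 428, 399, 398 and 403 CPM and STSABs libraries 388, 398, 425, 391 and 403 CPM. Its values were 274, 373, 373, 298 and 436 CPM in LPS libraries and 48.1, 52.9 and 54.5 CPM in Con libraries. LPS, UVABs and STSABs overlapped and Con lay far below. Pfkfb3 rose by 2.76 ± 0.11 (SE, adjusted p = 5.01e-16) in LPS against Con, under all 4 scalings. Against LPS it was 0.21 ± 0.085 in UVABs and 0.19 ± 0.085 in STSABs (SE, adjusted p = 0.0397 and 0.0586), past the threshold in UVABs and not in STSABs; the difference between the AB groups was 0.018 ± 0.085 (adjusted p = 1). Its call in UVABs was lost without any one of LPS replicates 1 and 4 and UVABs replicates 1, 2, 3 and 5, at 0.13 to 0.22. In STSABs it passed without LPS replicate 5, at 0.28, and without UVABs replicate 2, in DESeq2's test and in limma-voom, with each of the other 3 scalings, with replicates 1 to 3, with the replicate block and without the libraries numbered 2. Libraries of UVABs held 19.9, 26.4, 18.5, 19.0 and 19.8 CPM of Pfkfb4, and libraries of STSABs 20.3, 21.6, 18.7, 19.2 and 19.4 CPM. In LPS libraries Pfkfb4 reached 14.7, 12.97, 14.6, 15.3 and 13.3 CPM, against 30.2, 30.7 and 33.0 CPM in Con libraries. For Pfkfb4 the order was the other way, with Con above both AB groups and these above LPS, without overlap. It fell by 1.14 ± 0.091 in LPS against Con (SE, adjusted p = 9.15e-11) and was higher than in LPS by 0.55 ± 0.085 in UVABs and 0.49 ± 0.085 in STSABs (SE, adjusted p = 1.20e-05 and 4.88e-05).

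The remaining enzymes of the upper part of glycolysis were led by Tpi1, triosephosphate isomerase, which interconverts the triose phosphates that aldolase makes. Tpi1 stood at 581, 650.0, 609.6, 541 and 566 CPM in UVABs libraries and at 593, 604, 562, 528 and 574 CPM in STSABs libraries. The LPS libraries had 186, 206, 227, 193 and 219 CPM of Tpi1, and the Con libraries 293, 288 and 269.9 CPM. AB libraries were above Con libraries and Con above LPS, with no overlap. Tpi1 rose against LPS by 1.52 ± 0.061 in UVABs and 1.47 ± 0.061 in STSABs (SE, adjusted p = 6.67e-14 and 8.44e-14), and fell by 0.46 ± 0.068 in LPS against Con (SE, adjusted p = 1.89e-06), also under the other 3 scalings. Aldoa and Aldoc, aldolases that split fructose 1,6-bisphosphate, went opposite ways. Aldoa averaged 1594 ± 143 CPM in UVABs, 1593 ± 149.6 CPM in STSABs, 1119.6 ± 50.0 CPM in LPS and 1028 ± 25.9 CPM in Con libraries (SD) and Aldoc 64.7 ± 7.24 CPM in UVABs, 62.6 ± 3.95 CPM in STSABs, 83.2 ± 5.16 CPM in LPS and 54.6 ± 1.93 CPM in Con libraries (SD). Their log2 fold changes against LPS were 0.51 ± 0.064 and 0.51 ± 0.064 for Aldoa, and -0.36 ± 0.067 and -0.41 ± 0.067 for Aldoc, in UVABs and STSABs (all 4 adjusted p at most 8.67e-05). Gpi1, glucose 6-phosphate isomerase, was at -0.39 ± 0.091 (SE, adjusted p = 4.70e-04) in LPS against Con and at 0.31 ± 0.080 in UVABs and 0.33 ± 0.080 in STSABs against LPS. Its AB and Con libraries overlapped with TMM and not with library totals.

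In the lower part of glycolysis, where ATP is made, 5 of 7 genes were higher in each AB group than in LPS and none lower. Over all genes tested, 28.6% were higher and 28.8% lower in UVABs, and 28.4% higher and 29.0% lower in STSABs. The largest change of the 7 genes against LPS was that of Eno2, the enolase best known from neurons. For Eno2, UVABs libraries had 9.64, 7.78, 11.5, 8.50 and 10.3 CPM and STSABs libraries 10.1, 6.56, 8.80, 8.83 and 8.99 CPM. Its values were 3.17, 3.70, 2.82, 3.12 and 4.17 CPM in LPS libraries and 1.48, 1.77 and 1.48 CPM in Con libraries. The groups stood in the order UVABs and STSABs, LPS, Con, and only UVABs and STSABs overlapped. Eno2 rose against LPS by 1.49 ± 0.13 in UVABs and 1.35 ± 0.13 in STSABs (SE, adjusted p = 4.87e-09 and 2.31e-08), and by 1.10 ± 0.18 (SE, adjusted p = 1.02e-05) in LPS against Con, where library totals gave 0.36. It rested on few reads, at most 193 counts in a library. Eno1, the main enolase, averaged 1229.5 ± 142 CPM in UVABs, 1208 ± 124 CPM in STSABs, 984 ± 18.3 CPM in LPS and 947 ± 11.9 CPM in Con libraries (SD). Its change against LPS was 0.32 ± 0.069 in UVABs and 0.30 ± 0.069 in STSABs. Gapdh, glyceraldehyde 3-phosphate dehydrogenase, was the most abundant of the 44 genes per length, at 3270.0 CPM per kilobase in UVABs, 3275 in STSABs, 2529 in LPS and 1738 in Con. It was higher than in LPS by 0.37 ± 0.075 in UVABs and 0.37 ± 0.075 in STSABs (SE, adjusted p = 2.35e-04 and 2.19e-04), and its CPM in LPS were higher than in Con with TMM (0.54 ± 0.088) but lower with library totals (-0.20). Pgk1, phosphoglycerate kinase, changed by 0.34 ± 0.045 and 0.30 ± 0.045 against LPS in UVABs and STSABs. Pgam1, phosphoglycerate mutase, changed by 0.80 ± 0.045 and 0.80 ± 0.045. Pkm, pyruvate kinase, was at 0.13 ± 0.057 and 0.13 ± 0.057, not past the threshold (adjusted p = 0.0554 and 0.0526). Pkm passed in both AB groups with DESeq2's test and with library totals, at 0.13 to 0.18.

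Libraries of UVABs held 2.67, 4.25, 3.03, 3.09 and 2.58 CPM of Bpgm, and libraries of STSABs 3.42, 2.98, 4.01, 3.27 and 3.29 CPM. In LPS libraries Bpgm reached 2.63, 2.54, 2.76, 3.12 and 2.46 CPM, against 6.48, 6.32 and 8.03 CPM in Con libraries. Bpgm makes 2,3-bisphosphoglycerate, a side product of glycolysis known from red blood cells. Con was above all other groups, which overlapped. It fell by 1.36 ± 0.14 in LPS against Con (SE, adjusted p = 4.85e-09), and its values against LPS were 0.21 and 0.33, not past the threshold; the STSABs value passed with each of the other 3 scalings, at up to 0.37, and without LPS replicate 4, at 0.38, among other settings. Erythroid markers summed to at most 14.8 CPM in any library.

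Lactate genes showed the export step moving most. Slc16a3 (MCT4) is the lactate exporter of glycolytic cells. Slc16a3 stood at 268, 339, 274, 253 and 279 CPM in UVABs libraries and at 268, 333, 257, 236 and 260.2 CPM in STSABs libraries. The LPS libraries had 60.6, 76.9, 81.1, 67.7 and 83.1 CPM of Slc16a3, and the Con libraries 94.2, 105 and 131 CPM. The AB libraries were highest, replicate 2 again on top in each group, Con intermediate and LPS lowest, with no overlap between these 3 levels. Slc16a3 rose against LPS by 1.94 ± 0.11 in UVABs and 1.88 ± 0.11 in STSABs (SE, adjusted p = 4.51e-12 and 7.33e-12) and fell by 0.58 ± 0.12 in LPS against Con (SE, adjusted p = 1.28e-04), in the same direction under all 4 scalings. Against Con it was higher by 1.36 ± 0.12 in UVABs and 1.30 ± 0.12 in STSABs. Slc16a1 (MCT1), a transporter that moves lactate either way, averaged 27.8 ± 2.41 CPM in UVABs, 28.1 ± 1.83 CPM in STSABs, 18.4 ± 2.49 CPM in LPS and 17.1 ± 0.274 CPM in Con libraries (SD), and changed by 0.60 ± 0.080 and 0.61 ± 0.080 against LPS. The lactate dehydrogenase subunits differed: Ldha, the muscle type that favours lactate formation, averaged 1361 ± 38.0 CPM in UVABs, 1349 ± 31.4 CPM in STSABs, 892 ± 26.0 CPM in LPS and 711 ± 33.2 CPM in Con libraries (SD). Ldhb, the heart type, averaged 7.34 ± 1.21 CPM in UVABs, 6.48 ± 1.13 CPM in STSABs, 11.4 ± 0.974 CPM in LPS and 12.9 ± 1.09 CPM in Con libraries (SD). Ldha was higher than in LPS by 0.61 ± 0.041 in UVABs and 0.60 ± 0.041 in STSABs (SE, adjusted p = 8.74e-11 and 1.23e-10), and Ldhb lower, at -0.63 ± 0.11 in UVABs and -0.81 ± 0.12 in STSABs (SE, adjusted p = 7.81e-05 and 4.50e-06), with no AB library overlapping LPS for either.

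**Figure D3:**
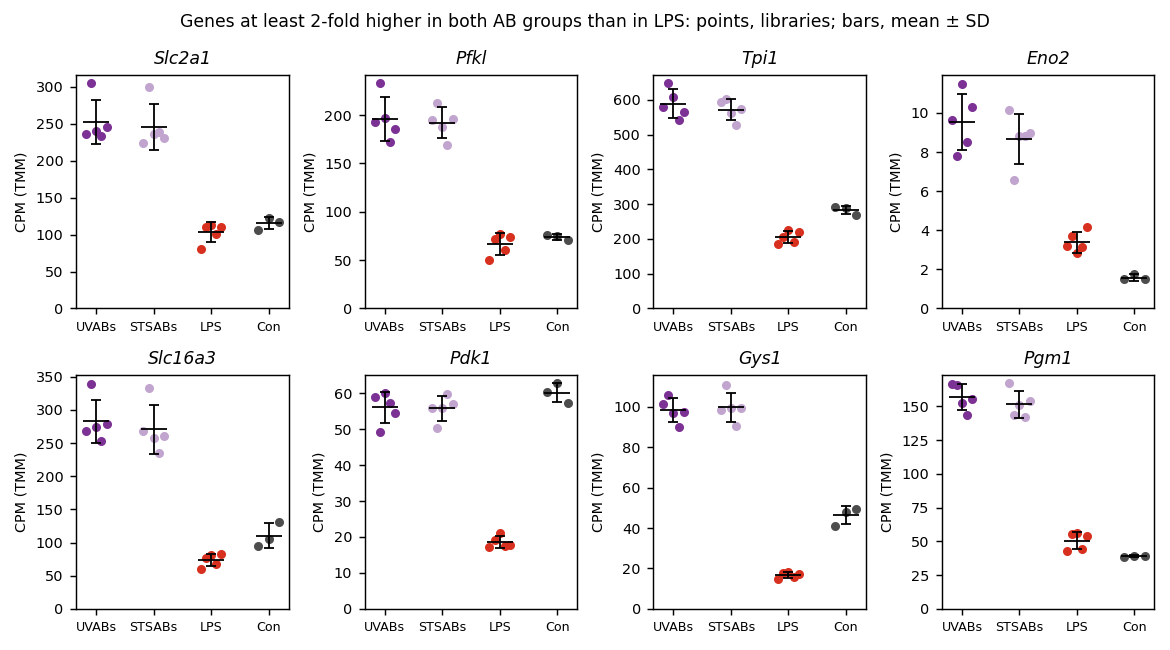
Points are TMM-scaled CPM of single libraries of UVABs, STSABs, LPS (n = 5 each) and Con (n = 3) for the 8 genes at least 2-fold higher in each AB group than in LPS; bars are mean ± SD. In each panel all 10 AB libraries lie above all LPS libraries, and for Pdk1 they overlap Con on this scale.

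The pyruvate dehydrogenase kinases, which inhibit the pyruvate dehydrogenase complex, differed from one another. For Pdk1, UVABs libraries had 58.9, 49.3, 60.2, 57.2 and 54.5 CPM and STSABs libraries 55.8, 50.3, 55.9, 59.8 and 57.0 CPM. Its values were 17.1, 19.2, 21.1, 17.5 and 17.9 CPM in LPS libraries and 60.2, 62.8 and 57.4 CPM in Con libraries. LPS libraries were below all others, and the AB and Con libraries overlapped. Pdk1, the kinase known as a HIF-1 target, fell by 1.70 ± 0.073 in LPS against Con (SE, adjusted p = 1.50e-15) and was higher than in LPS by 1.59 ± 0.068 in UVABs and 1.59 ± 0.068 in STSABs (SE, adjusted p = 1.22e-13 and 1.33e-13). Against Con its values were -0.10 ± 0.070 in UVABs and -0.11 ± 0.070 in STSABs, not past the threshold with TMM. Pdk1 was lower than Con in both AB groups with the upper quartile, at -0.37 in UVABs and -0.38 in STSABs, and with library totals, at -0.81 in each, where AB and Con libraries did not overlap. Libraries of UVABs held 1.94, 2.69, 2.26, 1.69 and 1.82 CPM of Pdk2, and libraries of STSABs 2.09, 1.76, 2.22, 2.11 and 1.70 CPM. In LPS libraries Pdk2 reached 0.898, 0.788, 1.29, 1.08 and 1.17 CPM, against 10.3, 11.5 and 11.6 CPM in Con libraries. Pdk2 had its highest values in Con, and the AB libraries were above LPS without overlap but far below Con. It had as few as 13 counts in a library. Its fall in LPS against Con, by 3.41 ± 0.14 (SE, adjusted p = 4.52e-16), was the largest of the 44 genes. Against LPS it was higher by 0.99 ± 0.17 in UVABs and 0.92 ± 0.17 in STSABs (SE, adjusted p = 3.33e-05 and 8.74e-05). Pdk3 averaged 141 ± 2.44 CPM in UVABs, 140.5 ± 2.87 CPM in STSABs, 93.5 ± 4.94 CPM in LPS and 47.8 ± 3.03 CPM in Con libraries (SD), with no overlap except between UVABs and STSABs. It changed by 0.59 ± 0.044 and 0.59 ± 0.044 against LPS, and by 0.97 ± 0.053 in LPS against Con. The subunits of the enzyme itself went apart: Pdha1 was at 0.36 ± 0.058 and 0.37 ± 0.058 against LPS, and Pdhb fell by 0.21 ± 0.047 and 0.26 ± 0.047.

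Glycogen genes held the largest rise in the AB groups, that of Gys1, the glycogen synthase found outside the liver. Gys1 stood at 101, 106, 96.9, 89.9 and 97.3 CPM in UVABs libraries and at 98.4, 111, 99.4, 90.5 and 99.3 CPM in STSABs libraries. The LPS libraries had 14.7, 17.5, 18.4, 15.8 and 17.3 CPM of Gys1, and the Con libraries 41.1, 48.2 and 49.6 CPM. AB libraries were above Con, and Con above LPS, with no overlap. LPS libraries lay within a narrow range. Gys1 rose against LPS by 2.55 ± 0.073 in UVABs and 2.57 ± 0.073 in STSABs (SE, adjusted p = 2.66e-16 and 1.19e-16). It fell by 1.47 ± 0.080 in LPS against Con (SE, adjusted p = 1.02e-13), and was above Con by 1.09 ± 0.077 in UVABs and 1.11 ± 0.077 in STSABs. For Pygl, UVABs libraries had 133, 148, 135, 122 and 127 CPM and STSABs libraries 140.1, 156, 132, 123 and 135 CPM. Its values were 87.6, 88.3, 83.5, 81.9 and 92.7 CPM in LPS libraries and 283, 276 and 239.9 CPM in Con libraries. Pygl, the liver type phosphorylase that releases glucose 1-phosphate from glycogen, was highest in Con, and AB libraries lay above LPS without overlap. It fell by 1.62 ± 0.073 in LPS against Con (SE, adjusted p = 3.06e-15) and was higher than in LPS by 0.62 ± 0.066 in UVABs and 0.66 ± 0.066 in STSABs (SE, adjusted p = 7.27e-08 and 2.64e-08). Libraries of UVABs held 167, 166, 152, 144 and 155 CPM of Pgm1, and libraries of STSABs 167, 143, 151, 142 and 154 CPM. In LPS libraries Pgm1 reached 43.0, 55.4, 55.9, 44.004 and 54.0 CPM, against 38.6, 39.5 and 39.3 CPM in Con libraries. AB libraries were far above LPS, and LPS above Con, with no overlap, on the TMM scale. Pgm1 rose against LPS by 1.64 ± 0.072 in UVABs and 1.59 ± 0.071 in STSABs (SE, adjusted p = 1.92e-13 and 2.79e-13); its rise in LPS against Con, 0.37 ± 0.083 (SE, adjusted p = 3.65e-04), became -0.38 with library totals.

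Phosphoglucomutases link glycogen to glycolysis through glucose 1-phosphate and glucose 6-phosphate. The symbols Pgm1 and Pgm2 each stand as a synonym of the other in the RefSeq table, so which paralog a row counts is uncertain. Pgm2 averaged 21.8 ± 2.15 CPM in UVABs, 20.2 ± 1.47 CPM in STSABs, 13.7 ± 1.67 CPM in LPS and 22.9 ± 0.739 CPM in Con libraries (SD) and changed by 0.66 ± 0.083 and 0.55 ± 0.083 against LPS. Ugp2, which makes the UDP-glucose that glycogen synthase uses, changed by 0.21 ± 0.059 and 0.23 ± 0.059. Gbe1, the branching enzyme, went down, by 0.23 ± 0.075 and 0.27 ± 0.076, and was the only glycogen gene of the 6 to be lower in the AB groups than in LPS. The Gbe1 call in UVABs was lost with replicates 1 to 3 only, at -0.22.

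In the pentose phosphate pathway, in the main fit with TMM scaling, none of the 7 genes was higher in either AB group than in LPS, and 2 were lower in each. Tkt passed as higher in STSABs without any one of LPS replicate 3, STSABs replicates 4 and 5 and UVABs replicate 2, at 0.13 to 0.16. In UVABs Tkt passed without LPS replicate 3, at 0.155, or UVABs replicate 4, at 0.149, and Pgls without UVABs replicate 5, at 0.19. With library totals Tkt was higher in both, at 0.17 in UVABs and 0.18 in STSABs (adjusted p = 0.0163 and 0.0115), and Pgls and Taldo1 in UVABs, at 0.19 and 0.11 (adjusted p = 0.0301 and 0.0484). Over all genes tested, 28.6% were higher and 28.8% lower in UVABs, and 28.4% higher and 29.0% lower in STSABs, so 2 of 7 lower is near the share of all genes. The lower genes were G6pdx and Pgd, the dehydrogenases of the oxidative steps that make NADPH. G6pdx averaged 202 ± 3.78 CPM in UVABs, 201 ± 4.91 CPM in STSABs, 239 ± 6.66 CPM in LPS and 187 ± 4.30 CPM in Con libraries (SD). Pgd averaged 412 ± 32.1 CPM in UVABs, 407 ± 23.6 CPM in STSABs, 545 ± 21.1 CPM in LPS and 403 ± 17.6 CPM in Con libraries (SD). LPS libraries were above all AB and Con libraries for both genes. G6pdx fell by 0.24 ± 0.037 in UVABs and 0.25 ± 0.037 in STSABs (SE, adjusted p = 9.59e-06 and 6.24e-06), and Pgd by 0.40 ± 0.054 and 0.42 ± 0.054 (adjusted p = 1.59e-06 and 9.47e-07). Both were higher in LPS than in Con with TMM, at 0.35 ± 0.043 and 0.44 ± 0.063, and lower with library totals, at -0.39 and -0.31. For Rpe, UVABs libraries had 78.0, 65.5, 75.8, 86.2 and 76.3 CPM and STSABs libraries 79.9, 69.2, 80.0, 79.4 and 79.5 CPM. Its values were 90.3, 78.8, 74.6, 78.7 and 79.2 CPM in LPS libraries and 35.3, 33.5 and 32.5 CPM in Con libraries. Rpe, ribulose phosphate epimerase, was low in Con, and the other 3 groups overlapped. It rose by 1.25 ± 0.078 (SE, adjusted p = 1.44e-12) in LPS against Con, under all 4 scalings, and was at -0.074 and -0.050 against LPS, not past the threshold. Rpia, ribose phosphate isomerase, went the other way in LPS against Con, at -0.84 ± 0.092, as did the lactonase Pgls at -0.46 ± 0.085. Tkt and Taldo1, which exchange carbon units back to glycolysis, were at -0.16 ± 0.068 and -0.22 ± 0.056; the call of Tkt was lost without any one of the 3 Con libraries and LPS replicates 1 and 4, at -0.17 to -0.15. Against LPS, the 5 genes not called lay between -0.07 and 0.15.

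The ratio of 2 genes within a library does not depend on how libraries are scaled, so 8 pairs were compared with two-sided exact permutation tests, adjusted over 32 tests. The smallest p that 5 against 3 libraries allow is 0.0179, and for 5 against 5 it is 0.00794. Pfkp had 3.49 to 5.52 times the counts of Pfkl in UVABs libraries, 4.04 to 5.71 times in STSABs, 10.3 to 16.7 times in LPS and 3.83 to 3.92 times in Con. The log2 ratio differed by -1.44 in UVABs and -1.35 in STSABs against LPS (adjusted p = 0.0212 each), and by 1.71 in LPS against Con (adjusted p = 0.0286). LPS libraries had the highest ratios, without overlap. Hk2 to Hk1 ran at 0.973 to 1.19 in UVABs, 0.961 to 1.18 in STSABs, 1.34 to 1.77 in LPS and 0.677 to 0.770 in Con, and the log2 differences were -0.51, -0.53 and 1.08 in the same order of comparisons, with the same adjusted p-values. Gys1 to Pygl is the ratio of a glycogen synthase gene to a phosphorylase gene, and takes in no other glycogen gene. This ratio was 0.714 to 0.764 in UVABs, 0.702 to 0.754 in STSABs, 0.168 to 0.221 in LPS and 0.145 to 0.207 in Con. It was higher than in LPS by 1.94 and 1.92 (adjusted p = 0.0212 each), and differed by 0.15 in LPS against Con (adjusted p = 0.422).

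Slc16a1 to Slc16a3 was 0.0944 to 0.108 in UVABs, 0.0828 to 0.130 in STSABs, 0.220 to 0.285 in LPS and 0.131 to 0.183 in Con. Log2 differences were -1.34 in UVABs and -1.25 in STSABs against LPS, and 0.67 in LPS against Con. Ldhb to Ldha fell to 0.00416 to 0.00638 in UVABs and 0.00337 to 0.00585 in STSABs, against 0.0110 to 0.0144 in LPS, which was below the 0.0168 to 0.0196 in Con; the log2 differences were -1.25, -1.42 and -0.51. Eno2 to Eno1 was higher by 1.17 in UVABs and 1.05 in STSABs against LPS and by 1.04 in LPS against Con. These 3 pairs had adjusted p = 0.0212 against LPS and 0.0286 in LPS against Con. Pfkfb4 to Pfkfb3 was 0.0305 to 0.0538 in LPS and 0.579 to 0.628 in Con, a log2 difference of -3.88 (adjusted p = 0.0286). The AB groups differed from LPS in it by 0.31 and 0.28, not past the threshold (adjusted p = 0.181 and 0.208). Hk2 to Hk3 was higher than in LPS by 0.21 in UVABs and 0.24 in STSABs (adjusted p = 0.0286 each), and at -0.052 in LPS against Con (adjusted p = 0.527). The STSABs call was lost without STSABs replicate 2, at 0.16, or without any one of STSABs replicate 3 and LPS replicates 1 to 4, at 0.22 to 0.25. Leaving out 1 Con library leaves too few arrangements for any pair to pass in LPS against Con.

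Per length of transcript, the makeup of each enzyme family shifted between groups; these shares are descriptions of CPM per kilobase, with no test. Slc2a6 made up 64.9% ± 0.88 of the 3 glucose transporter genes in UVABs, 65.2% ± 1.4 in STSABs, 88.5% ± 1.2 in LPS and 36.2% ± 2.7 in Con (SD). Slc2a1 made up 31.1% ± 1.6, 30.5% ± 1.8, 9.24% ± 1 and 55.5% ± 1.8 in the same groups. Among hexokinases Hk3 held 43.1% ± 0.71 in UVABs, 42.2% ± 2.6 in STSABs, 51.2% ± 0.42 in LPS and 39.7% ± 0.77 in Con, and Hk1 and Hk2 the rest. Pdk3 led the pyruvate dehydrogenase kinases in every group, with 85% ± 0.89 in UVABs, 85.1% ± 0.65 in STSABs, 91.6% ± 0.89 in LPS and 57.7% ± 1.9 in Con. Pdk1 followed with 13.8% ± 1, 13.8% ± 0.61, 7.44% ± 0.76 and 29.7% ± 2. Con libraries were the most mixed in the glucose transporter and pyruvate dehydrogenase kinase families, and LPS libraries the most taken up by 1 gene. For the monocarboxylate transporters LPS was the most mixed, with Slc16a3 at 80.4% in LPS, 86.6% in Con, 91.2% in UVABs and 90.7% in STSABs. Of all 44 genes, the 6 with the most CPM per kilobase were Gapdh, Aldoa, Ldha, Eno1, Pgk1 and Pkm in every group. They made up 69.9% of the sum over the 44 in UVABs and in STSABs, 69.0% in LPS and 67.4% in Con.

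**Figure D4:**
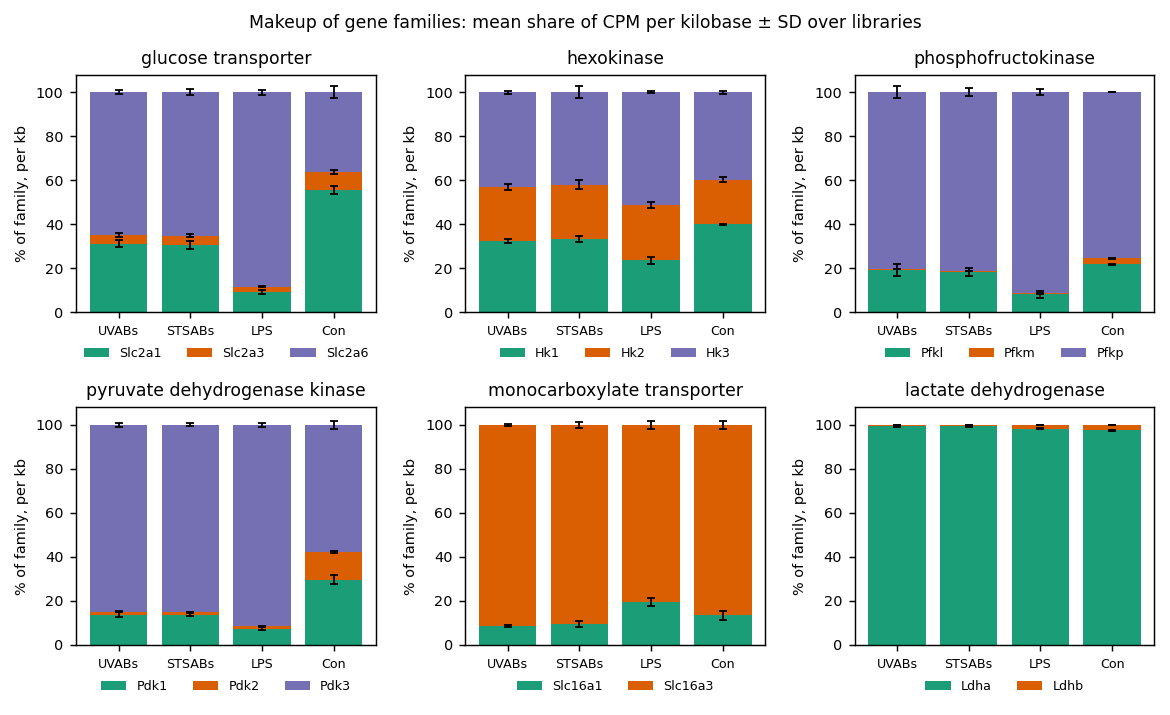
Stacked bars give the mean share of each gene in its family, as % of CPM per kilobase, in UVABs, STSABs, LPS (n = 5 each) and Con (n = 3); the bar at the top of each segment is the SD of that gene's share. Slc2a6 fills 88.5% of the transporter bar in LPS, against 36.2% in Con.

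Set against Con directly, UVABs had 28 of the 44 genes higher, 10 lower and 6 not past the threshold (82.6% of all genes called, 40.2% higher and 42.4% lower), and STSABs the same counts of 28, 10 and 6 (82.6% called, 40.0% higher and 42.6% lower). These comparisons share the Con libraries and carry the scaling limit given for LPS against Con. With library totals 20 of the 44 genes were lower in each, and 19 were higher in UVABs and 20 in STSABs. Of all 12465 genes, library totals put 8523 lower and 2504 higher in UVABs, and 8511 lower and 2510 higher in STSABs. Slc2a6 and Pfkfb3 were far above Con, at 2.80 ± 0.072 in UVABs and 2.80 ± 0.072 in STSABs for Slc2a6 and 2.97 ± 0.11 in UVABs and 2.95 ± 0.11 in STSABs for Pfkfb3. Eno2 was above it by 2.59 ± 0.16 in UVABs and 2.45 ± 0.16 in STSABs, and Pgm1 by 2.00 ± 0.086 in UVABs and 1.95 ± 0.086 in STSABs. Tpi1, Slc16a3 and Gys1, lower in LPS than in Con, were above Con in the AB groups; for Tpi1 the values were 1.06 ± 0.071 in UVABs and 1.01 ± 0.071 in STSABs. Pdk1, Gpi1 and Pgm2, also lower in LPS, did not pass the threshold against Con with TMM, but all 3 were lower than Con in both AB groups with the upper quartile and with library totals. For Gpi1 the values were -0.077 ± 0.091 in UVABs and -0.060 ± 0.091 in STSABs with TMM, and -0.78 and -0.76 with library totals. Pdk2, Pygl, Pfkm, Pfkfb4 and Pdha1 were below Con, with Pdk2 at -2.42 ± 0.12 in UVABs and -2.49 ± 0.12 in STSABs and Pygl at -1.002 ± 0.072 in UVABs and -0.96 ± 0.072 in STSABs. Ldhb was below Con in both AB groups too, at -0.81 ± 0.12 in UVABs and -0.99 ± 0.12 in STSABs, where LPS was at -0.18, not past the threshold with TMM, and lower than Con with the upper quartile, at -0.46, and with library totals, at -0.93. Pentose phosphate genes G6pdx and Pgd were near Con, at 0.11 ± 0.043 in UVABs and 0.10 ± 0.043 in STSABs for G6pdx and 0.032 ± 0.062 in UVABs and 0.017 ± 0.062 in STSABs for Pgd; G6pdx passed the threshold and Pgd did not, and with library totals both were lower than in Con, at -0.60 and -0.60 for G6pdx.

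**Figure D5:**
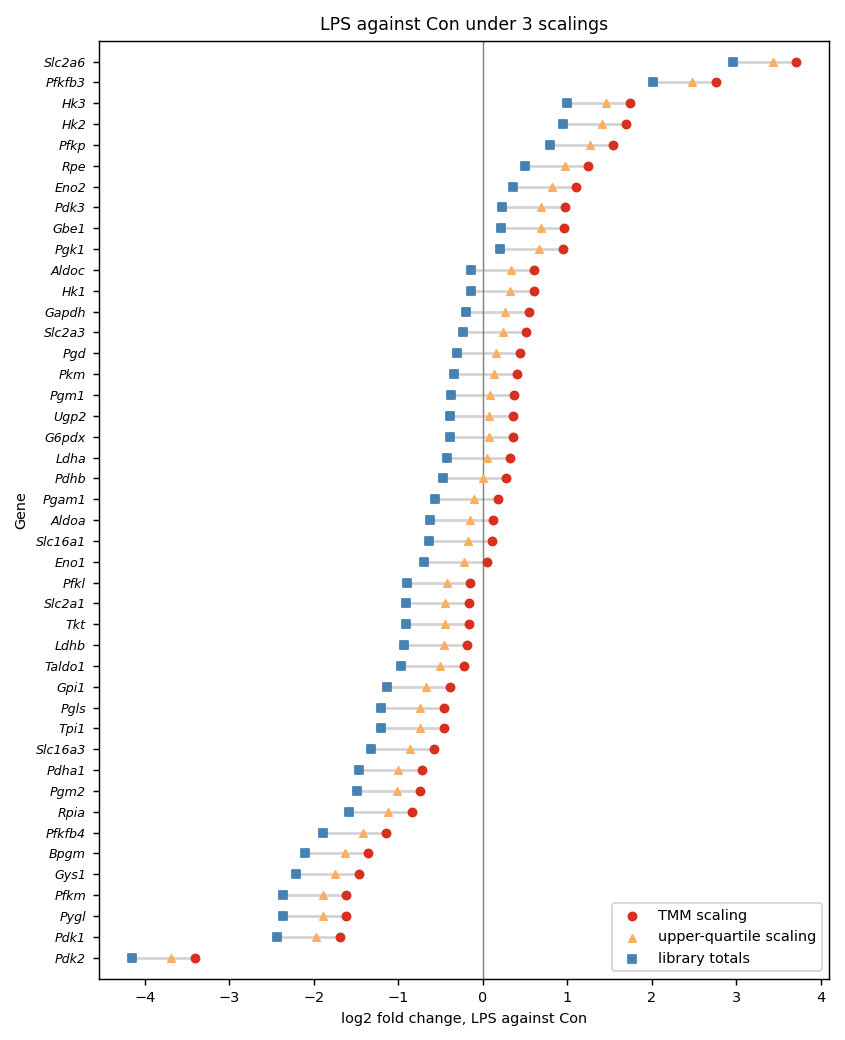
Each gene's log2 fold change in LPS against Con is plotted with TMM (circles), upper-quartile (triangles) and library-total scaling (squares). Every gene lies farther left with library totals than with TMM; Slc2a6, Pfkfb3, Hk3, Hk2 and Pfkp stay right of 0 and Pdk2, Pdk1, Pygl, Pfkm and Gys1 left of it under all 3, and genes in the middle change side.

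UVABs and STSABs, made from the same kind of cells by different inducers, showed no difference past the threshold in these genes. None of the 44 was called, as none of all 12465 genes was (0.0% called; 198 had an unadjusted p under 0.05; DESeq2 and limma-voom also called 0). Log2 differences of UVABs minus STSABs ranged from -0.12 for Bpgm to 0.18 for Ldhb. Ldhb had 6.61, 5.81, 8.91, 8.04 and 7.34 CPM in UVABs and 7.18, 4.68, 6.35, 7.66 and 6.52 CPM in STSABs, and its difference of 0.18 ± 0.12 (SE) was within the spread of the libraries. Eno2 was next, at 0.14 ± 0.12. For Gys1 the difference was -0.021 ± 0.064, and for Slc2a1 0.038 ± 0.092. No gene pair of the 8 passed the threshold between the AB groups, with differences from -0.084 to 0.17. Libraries with the same number in the 2 groups deviated together, with correlations of 0.116 to 0.54, against -0.346 to 0.154 for unlike numbers. With the number as a block again 0 genes were called.

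Genes of the same pathways outside the 44 were counted beside the shares of all genes tested, which were 28.6% higher and 28.8% lower in UVABs and 28.4% higher and 29.0% lower in STSABs; the counts of several lists were near these shares. Of 12 tested further genes of glucose transport and glycolysis, 4 were higher and 2 lower in UVABs than in LPS, and 4 higher and 1 lower in STSABs. Ldhc, the testis type lactate dehydrogenase, was at -1.22 ± 0.31 and -1.26 ± 0.31, and averaged under 1.1 CPM in every group. In the 5 tested gluconeogenesis genes, 2 were higher and 1 lower in each. Pck2, mitochondrial phosphoenolpyruvate carboxykinase, was at 1.54 ± 0.078 and 1.505 ± 0.078 against LPS and -3.04 ± 0.078 in LPS against Con. Pcx, pyruvate carboxylase, was lower, at -0.84 ± 0.14 and -0.85 ± 0.14. Of 8 genes of pyruvate entry into and use in mitochondria none was higher, 5 were lower in UVABs and 4 in STSABs. Among the lower genes, Pdhx, a structural subunit of the pyruvate dehydrogenase complex, was at -0.64 ± 0.073 and -0.65 ± 0.073. Pdp1, the phosphatase that switches the complex on, was at -0.69 ± 0.083 and -0.57 ± 0.082. In 18 glycogen turnover genes, 6 were higher and 1 lower in UVABs, and 6 higher and 2 lower in STSABs. Gyg, glycogenin, the primer of glycogen, was at 0.81 ± 0.044 and 0.81 ± 0.044, the brain type phosphorylase Pygb at 0.84 ± 0.065 and 0.86 ± 0.065, and Ppp1r3b, which brings a phosphatase to glycogen, at 1.55 ± 0.14 and 1.53 ± 0.14. In LPS against Con, 12 of these 18 were lower and 4 higher with TMM, beside 43.0% of all genes lower and 40.0% higher. Library totals put 8802 of all 12465 genes lower, and these list counts were made with TMM only. Of 7 further pentose phosphate genes, 1 was higher and 1 lower in each AB group. Prps2, which makes the ribose donor for nucleotides, was at 0.25 ± 0.088 and 0.24 ± 0.088.

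Known HIF-1 targets outside glycolysis were higher in the AB groups than in LPS in 15 of 16 cases each, with a median log2 fold change of 0.901 in UVABs and 0.911 in STSABs. Of all genes tested, 28.6% were called higher in UVABs and 28.4% in STSABs, and 28.8% and 29.0% lower. Bnip3 and Bnip3l, mitophagy receptors, were at 2.44 ± 0.10 and 2.45 ± 0.10 for Bnip3, and 0.83 ± 0.045 and 0.81 ± 0.045 for Bnip3l. Mxi1, an antagonist of Myc, was at 1.64 ± 0.087 and 1.66 ± 0.087. In LPS against Con, 6 of the 16 were higher and 7 lower with TMM, beside 40.0% and 43.0% of all genes, with Ndrg1 at 1.90 ± 0.083 and Bnip3l at -0.67 ± 0.050. Among 18 regulators of glucose and oxygen response, 9 were higher and 5 lower in UVABs, and 7 higher and 5 lower in STSABs, where 57.4% of all genes were called in each comparison. Egln1 and Egln3, prolyl hydroxylases that mark HIF for breakdown and are themselves induced by it, were at 1.94 ± 0.074 and 1.96 ± 0.074 for Egln1, and 2.29 ± 0.14 and 2.38 ± 0.14 for Egln3. Hif1a itself, named here after its values were seen, was at 0.31 ± 0.098 and 0.27 ± 0.098 against LPS, and 1.06 ± 0.12 in LPS against Con.

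Because many of the 44 genes and these targets were higher together, promoters were searched for ACGTG on either strand. These letters are a form of the core of the HIF binding element, and they also lie within the E-box CACGTG. The other form of the core, GCGTG, was not searched. The search is a description of letters, not of binding. The window was the 250 bases before a RefSeq start on GRCm38.p6, a build other than the mm39 of the authors' processing; 43 of the 44 genes had a window. The letters were in 19 of the 43 (44.2%), against 25.0% of 9991 tested genes with a window. By window they were in 22 of 59 (37.3%), against 21.4% of the windows of genes tested and 16.6% of all 32851 windows. They were in 15 of the 27 genes with a window that were higher in both AB groups (55.6%), in 3 of the 8 at least 2-fold higher (37.5%), and in 4 of the other 16 (25.0%). The full CACGTG was in 5 of 59 windows of the 44 genes (8.47%), against 8.18% of the windows of genes tested and 6.02% of all windows. No test was made. The windows of 4 genes are printed 5′ to 3′ in lower case, with ACGTG or CACGT in capitals: Slc2a1 (chr4:119108495-119108744, plus strand) and Slc16a3 (chr11:120948817-120949066, plus strand), 2 of the genes at least 2-fold higher; Ldha (chr7:46845554-46845803, plus strand), with the most matches; and Gys1 (chr7:45434589-45434838, plus strand), the largest rise, with none.
Slc2a1: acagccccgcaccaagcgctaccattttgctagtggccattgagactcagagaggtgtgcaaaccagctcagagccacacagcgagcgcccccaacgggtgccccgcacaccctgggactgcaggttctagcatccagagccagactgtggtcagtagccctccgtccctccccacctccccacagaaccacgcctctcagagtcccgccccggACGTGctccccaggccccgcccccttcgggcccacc
Slc16a3: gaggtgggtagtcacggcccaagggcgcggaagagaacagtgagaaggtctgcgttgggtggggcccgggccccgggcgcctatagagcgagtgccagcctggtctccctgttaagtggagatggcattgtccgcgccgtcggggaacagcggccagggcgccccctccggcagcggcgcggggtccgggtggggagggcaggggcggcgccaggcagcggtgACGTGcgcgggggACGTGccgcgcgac
Ldha: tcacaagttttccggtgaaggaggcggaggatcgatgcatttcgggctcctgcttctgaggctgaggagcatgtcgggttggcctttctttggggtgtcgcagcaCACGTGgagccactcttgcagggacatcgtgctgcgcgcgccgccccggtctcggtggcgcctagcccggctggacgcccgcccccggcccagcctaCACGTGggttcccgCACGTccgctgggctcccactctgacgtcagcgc
Gys1: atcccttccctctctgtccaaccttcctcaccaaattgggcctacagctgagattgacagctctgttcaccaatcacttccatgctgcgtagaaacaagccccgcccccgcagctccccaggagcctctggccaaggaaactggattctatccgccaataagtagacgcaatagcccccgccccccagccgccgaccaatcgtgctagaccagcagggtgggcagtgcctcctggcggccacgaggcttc

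The single match of Slc2a1 begins 36 bases before the start, and the matches of Slc16a3 begin 27 and 14 bases before it. In Ldha there are 5, of which 4 are the matches on both strands of a pair of CACGTG sites, beginning 145 and 48 bases before the start, and the last begins 34 bases before it. The window of Gys1 holds none of these letters, and nothing about a factor follows from that.

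Markers of some other cell types also moved with the AB groups. All 10 neutrophil and granulocyte precursor markers were higher in each AB group than in LPS, and their summed level was 3192 to 4214 CPM in UVABs, 3261 to 4727 CPM in STSABs, 1818 to 2530 CPM in LPS and 1191 to 1486 CPM in Con libraries. Ngp, S100a8 and S100a9, named after their values were seen, made up most of the sum, while the defining genes Ly6g, Mpo and Elane were at most 21.8 CPM in any library. None of the 10 was at 0 in any group. All 3 tested mast cell and basophil markers were higher in each as well, with sums of 103.9 to 135.6 CPM in UVABs, 106.1 to 170.7 CPM in STSABs, 48.4 to 78.1 CPM in LPS and 71.0 to 80.5 CPM in Con. Of the 10 macrophage markers, 6 were lower and 2 higher in each AB group than in LPS. Of 4 tested dendritic cell markers, 3 were higher. None of 4 tested T and NK cell markers was called in either AB group against LPS. Among 4 tested B cell markers none was higher and 1 lower in each. In 5 tested stromal cell markers 1 was higher in each, with 1 lower in UVABs and 2 in STSABs. Erythroid markers had 1 of 2 tested higher in each. Over all genes tested, 28.6% were higher and 28.8% lower in UVABs, and 28.4% higher and 29.0% lower in STSABs. The part of other cells in the changes of the 44 genes was not tested. Summed markers of T and NK cells reached at most 9.21 CPM, of B cells 7.18 CPM and of stromal cells 33.6 CPM in any library.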

How the data were processed

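Paired-end NovaSeq libraries were made from poly(A) RNA, with dUTP in the second strand, per the labels' protocols. HISAT2 and the mm39 build are named in the submitters' processing notes. For the counter, strand setting and annotation, the sources used here give no name. The values the authors deposited are estimated counts, not normalized, of which 6.35% were not whole; they were rounded. Gapdh, Gpi1 and Eno1 had values that were not whole, and genes with pseudogenes or overlapping neighbours are uncertain.

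The table was filtered by group with filterByExpr (99.97% of counts kept), scaled by TMM and tested with edgeR 4.0.16 (R 4.3.3) by the quasi-likelihood F-test over all 18 libraries, with Benjamini-Hochberg adjustment over 12465 genes in each of 6 contrasts. Each SE was derived from the fold change and F. Pair ratios used a pseudocount of 0.5. Totals of 17588357 to 18675283 set the precision. Members and lists were chosen with earlier results of these data known. Values in every library are given for genes past the threshold with an absolute log2 fold change of at least 1 in LPS against Con or an AB group against LPS; other lists name up to 3 genes with the smallest adjusted p.

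Alternatives were DESeq2 1.42.0 size factors and test, limma-voom (limma 3.58.1), upper-quartile scaling, library totals, no filter, a stricter filter (5 CPM in 3 libraries), only the groups compared, replicates 1 to 3, a term for replicates 4 and 5, the replicate number as a block, no libraries numbered 2 of both AB groups, and each library left out. Same-numbered STSABs and UVABs libraries had correlations of deviations of 0.116 to 0.54 in 5 of 5 pairs, against -0.346 to 0.154 for unlike numbers. The 0.54 was that of the libraries numbered 2. The numbers may pair these groups, but the labels do not say what a number marks. Same-numbered STSABs and LPS libraries were at -0.0279 to 0.0693. A fit of both AB groups with the block was added after seeing the data. Lengths for CPM per kilobase came from GENCODE M21 principal transcripts, and promoter windows from RefSeq, both on GRCm38.p6, which was used for no coordinates of the count table. No gene coordinates on mm39 were used here. A few results are not reported here.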

Additional observations from a re-analysis of the deposited data

Results flagged for a closer look

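Of 156 groups of 5 libraries checked for a library far from the others (Dixon's test at 95%, which chance flags in about 1 of 20 groups), 16 were marked, 12 of them for replicate 2 of STSABs or UVABs. In CPM, Slc2a1 was highest in UVABs replicate 2, at 305.5 (234.1 to 245.3 in the others), and in STSABs replicate 2, at 300.2 (223.5 to 238.6). UVABs replicate 2 was also highest for Slc2a6 (373.6), Pfkfb3 (427.9), Pfkfb4 (26.4), Eno1 (1476) and Slc16a1 (31.98), and lowest for Pfkp (812.6) and Pdha1 (58.5). STSABs replicate 2 was lowest for Rpe, at 69.2. STSABs replicate 1 was highest for Pgam1 (813.4), LPS replicate 2 for Pfkm (2.91) and LPS replicate 1 for Rpe (90.3). Among ratios of counts, Eno2 to Eno1 was lowest in STSABs replicate 2 (0.00468), Slc16a1 to Slc16a3 highest in UVABs replicate 4 (0.108), and Pfkfb4 to Pfkfb3 highest in UVABs replicate 2 (0.0618).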

How the results depend on the processing

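Counts of genes called against LPS, and of 0 between the AB groups, moved by less than 1.5 times under every setting. Only scaling moved others further. In LPS against Con, 14 were higher with the upper quartile and 9 with library totals, which put 32 lower. Of all 12465 genes, the upper quartile put 3754 higher there, and library totals 2365 higher and 8802 lower. Against Con 17 were lower with the upper quartile and 20 with library totals, in UVABs and in STSABs alike. Over all genes, the upper quartile put 6622 lower in UVABs and 6646 in STSABs, and library totals 8523 and 8511. Directions turned in these log2 fold changes. In LPS against Con, library totals gave Slc2a3 -0.23, Hk1 -0.14, Aldoa -0.62, Aldoc -0.14, Gapdh -0.20, Pgam1 -0.57, Eno1 -0.69, Pkm -0.34, Ldha -0.42, Slc16a1 -0.64, Pdhb -0.47, Ugp2 -0.39, Pgm1 -0.38, G6pdx -0.39 and Pgd -0.31, and the upper quartile Pgam1 -0.10, Eno1 -0.22 and Pdhb -0.00026. In UVABs against Con, library totals gave Aldoa -0.074, Aldoc -0.46, Eno1 -0.33, Pkm -0.17, Slc16a1 -0.0012, Pdhb -0.63, Ugp2 -0.13, G6pdx -0.60 and Pgd -0.67, and the upper quartile Aldoc -0.025, Pdhb -0.20, G6pdx -0.16 and Pgd -0.24. In STSABs against Con, library totals gave Aldoa -0.066, Aldoc -0.50, Eno1 -0.35, Pkm -0.16, Pdhb -0.67, Gbe1 -0.0037, Ugp2 -0.11, G6pdx -0.60 and Pgd -0.68, and the upper quartile Aldoc -0.069, Pdhb -0.24, G6pdx -0.16 and Pgd -0.25. The cause was not tested.

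With the replicate number as a block, 32 genes were higher and 7 lower in UVABs than in LPS, and 31 and 7 in STSABs than in LPS. In LPS against Con 23 were higher and 16 lower. Of all 12465 genes, 3703 were then higher and 3755 lower in UVABs than in LPS, and 3657 and 3774 in STSABs. For LPS against Con these counts were 5012 and 5356. The block called 0 genes between UVABs and STSABs, also in a fit of both alone. Same-numbered Con and LPS libraries correlated at 0.0193 to 0.113, and unlike-numbered ones at -0.121 to 0.0783. Whether the numbers pair groups other than the AB groups cannot be told from this. Sign-flip tests of 5 pairs cannot go below 0.0625.

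Over the fits without 1 library, log2 ratio differences that lost the threshold at least once ranged, in LPS against Con, as follows: Eno2 to Eno1 0.96 to 1.13, Hk2 to Hk1 1.03 to 1.13, Ldhb to Ldha -0.56 to -0.45, Pfkfb4 to Pfkfb3 -3.98 to -3.78, Pfkp to Pfkl 1.61 to 1.78, Slc16a1 to Slc16a3 0.54 to 0.79. For STSABs against LPS it was Hk2 to Hk3 0.16 to 0.30, at 0.16 also without both libraries numbered 2. Counts of at least 13 per gene and library, and 3 Con libraries, limit the precision.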
